A study of Mus musculus with 23 samples.

Results

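Genes of the neuropeptide systems of cortex were followed across the whole data set: the peptide precursors Cck, Adcyap1, Pnoc, Tac2, Trh and Crh, the CRH-binding protein Crhbp and the CRH receptor Crhr1. They were taken by gene symbol, with earlier results of these data known, and all 8 were found among 27178 genes. All 8 also were among the 16385 genes kept for testing, those reaching 10 normalized counts in 5 libraries or more. Bulk RNA-seq of polyadenylated RNA had been made from the orbitofrontal cortex of wild-type male C57BL/6J mice, with age given as 8 weeks. On day 0 the mice had received an AAV6 vector with the promoter of the astrocyte gene Gfap, carrying either GFP or ZBTB7A, a zinc-finger transcription factor. On day 21 they met either a subthreshold social defeat stress, a brief encounter with an aggressor, or a control procedure. Behavioural tests ran from day 22 to day 27 in all groups, and infected tissue was dissected on day 28. The 4 sets of libraries resulted, with n = 8 for GFP stress and n = 5 each for GFP control, ZBTB7A control and ZBTB7A stress; a number after a set, as in GFP stress 21, is that of the title. The labels give the ZBTB7A vector together with GFP. The promoter addresses astrocytes, while the 8 genes are known mainly from neurons. The labels do not say that each library came from a different mouse, so p-values measure the spread between these samples.

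Neuropeptides are cut from precursor proteins, stored in dense-core vesicles and released to act on G protein-coupled receptors. In cortex, Cck, Pnoc, Tac2 and Crh are known from classes of inhibitory interneurons, and Cck and Adcyap1 also from excitatory neurons. CRH acts through CRHR1, best known for driving the hormonal stress response from the hypothalamus and present on many cortical neurons, while CRHBP binds the peptide outside the cell and limits its action.

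Many of these peptides end in an amide, which the enzyme PAM makes from a glycine that stands before basic residues in the precursor. Such signals show where an active peptide ends, and they were searched in the annotated coding sequence of each precursor (GENCODE M21, longest transcript tagged as principal). The search took a glycine codon followed by a pair of lysine or arginine codons, or by a single one and the stop codon. Cck, Tac2 and Crh held 1 signal each, Adcyap1 held 2, Trh held 5 and Pnoc held 0. The lines give the 8 codons before the glycine, the glycine codon in capitals and the codons after it, 5′ to 3′, with 1 of the 5 Trh signals.
Cck: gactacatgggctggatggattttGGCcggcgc
Adcyap1, signal 1: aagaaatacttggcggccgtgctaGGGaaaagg
Adcyap1, signal 2: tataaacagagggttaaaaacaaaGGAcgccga
Tac2: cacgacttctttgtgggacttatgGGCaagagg
Trh, signal 1: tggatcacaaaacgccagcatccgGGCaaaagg
Crh: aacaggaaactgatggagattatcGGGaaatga
The signals of Adcyap1 stand next to each other in the transcript, at bases 904 to 936 and 937 to 969, and end the short and the long form of the peptide PACAP. The 5 signals of Trh lie between bases 325 and 735 of its transcript, so 1 precursor of TRH holds several copies of the peptide.

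Cck, Adcyap1 and Crhr1 varied together across the libraries, and the 250 bases before their start sites are shown for that reason, from RefSeq on GRCm38.p6. Pearson's r was 0.886 for Cck with Adcyap1, 0.839 for Crhr1 with Adcyap1 and 0.809 for Cck with Crhr1. These 3 genes are not set apart: r was 0.827 for Crh with Adcyap1 and 0.817 for Cck with Crhbp. Capitals mark the letters TGACG, the core of the cAMP response element, on either strand. Cck lies on the minus strand and the window is chr9:121495695-121495944. Adcyap1 lies on the plus strand and the window is chr17:93198767-93199016. A second Adcyap1 window, chr17:93198918-93199167, overlaps it, also holds TGACG, has 42.4% G and C, and is not shown. Crhr1 lies on the plus strand and the window is chr11:104132531-104132780.
Cck: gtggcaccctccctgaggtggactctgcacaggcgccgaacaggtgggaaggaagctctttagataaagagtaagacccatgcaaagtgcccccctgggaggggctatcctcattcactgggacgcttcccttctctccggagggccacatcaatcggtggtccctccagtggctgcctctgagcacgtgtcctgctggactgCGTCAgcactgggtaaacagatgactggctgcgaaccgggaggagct
Adcyap1: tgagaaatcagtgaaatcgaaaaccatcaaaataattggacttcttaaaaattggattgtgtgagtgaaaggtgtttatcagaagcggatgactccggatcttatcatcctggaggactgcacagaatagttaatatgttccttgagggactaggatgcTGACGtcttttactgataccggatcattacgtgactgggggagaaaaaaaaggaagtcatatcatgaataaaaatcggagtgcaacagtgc
Crhr1: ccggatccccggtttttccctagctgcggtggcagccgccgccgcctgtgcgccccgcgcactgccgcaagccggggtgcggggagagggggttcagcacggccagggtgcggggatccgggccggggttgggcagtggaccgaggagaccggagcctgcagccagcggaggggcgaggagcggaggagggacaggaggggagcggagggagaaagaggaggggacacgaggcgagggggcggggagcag
Of the 8 genes, 6 had an entry in the promoter table, and Crh and Pnoc had none. TGACG stood in the windows of Cck, Adcyap1, Crhbp and Trh and in neither that of Tac2 nor that of Crhr1. It was present in 17.8% of 32851 windows of that length from all genes. The palindrome TGACGTCA, which contains TGACG, was in 1.5% of those windows and in none of these 6 genes' windows. The windows also differed in base composition, from 39.6% G and C in this Adcyap1 window to 74.8% in Crhr1, beside a median of 52.4% over all windows. A match is a description of the letters only.

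Recovered reads ranged from 12.5 to 51.9 M per library. Zbtb7a, the mouse gene named in the vector, did not rise with the ZBTB7A label. Normalized counts of it spanned 3033 to 4666 for GFP control and 3681 to 4330 for GFP stress. They spanned 3357 to 3955 for ZBTB7A control and 3470 to 3899 for ZBTB7A stress. Its fold between vectors was 0.978 (95% interval 0.866 to 1.10) without stress and 0.953 (0.854 to 1.06) with stress, so every direction given here for a vector rests on the labels. The labels do not give the species or sequence of the transgene. Whether counts of the mouse gene include its RNA is therefore not known. All 20 excitatory and all 21 inhibitory neuron markers checked were detected. All 20 markers of striatal medium spiny neurons, cells of a neighbouring region, were detected as well, and their summed normalized count ran from 9624 to 69020 in GFP stress and from 19450 to 178400 in ZBTB7A control. The GFP stress libraries 5, 12, 20 and 21 had the lowest striatal marker level of all 23 libraries, and ZBTB7A control 6 had the highest. These 5 libraries stand apart in several of the 8 genes, and each comparison gives the signs of the 8 without them and with the striatal level as a covariate.

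Per kilobase of transcript, which is the scale used to compare genes with each other, Cck stood far above the rest. Its median over the 23 libraries was 6867 normalized counts per kb, with a range of 2144 to 10640. Crhbp followed with a median of 278 per kb, and Tac2 (191), Crhr1 (169), Adcyap1 (121), Pnoc (87.9), Crh (70.7) and Trh (56.5) came after it. Even the lowest Cck library lay above every library of every other gene, whose highest value was 358 per kb in Crhbp. The ranges of neighbours in the order from Crhbp to Trh overlapped, so their order differs between libraries. On the scale of normalized counts, 95.1% of tested genes had a lower median than Cck and 23.4% had a lower median than Trh. The reads behind these values ran from 960 to 16341 per library for Cck but from 24 to 222 for Crh and from 29 to 483 for Trh, so counting error weighs more on the last 2.

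The 8 genes varied more within groups than most genes. The SD of log2 values within groups was 0.98 for Trh, 0.67 for Adcyap1, 0.47 for Crh, 0.45 for Cck, 0.44 for Pnoc, 0.39 for Crhr1, 0.34 for Tac2 and 0.32 for Crhbp. The median over all tested genes was 0.19, and 97.8% of them had a smaller SD than Trh.

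**Figure D1:**
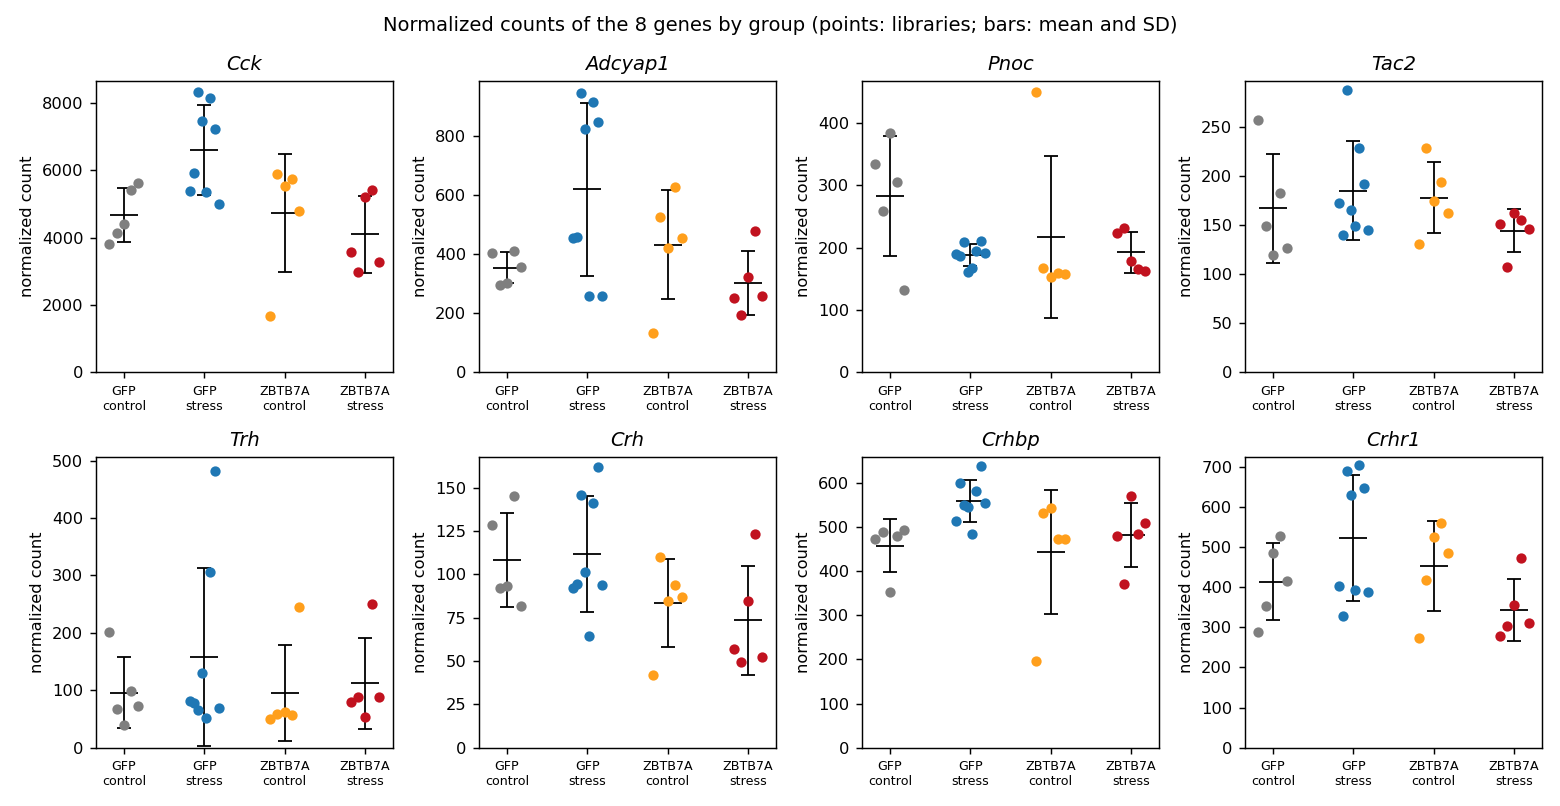
Normalized count of each of the 8 genes (vertical axes, starting at 0) in the 4 groups. Points are libraries and bars are the group mean and SD. In Adcyap1 the GFP stress libraries split into 4 near 823 to 944 and 4 at or below 457, and 1 ZBTB7A control library is far from its group in Cck, Crhbp and Pnoc.

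The first question the design asks is whether the ZBTB7A vector changed these genes in stressed mice. None of the 8 passed the test against GFP stress (limma on log2 normalized count plus 1, Benjamini-Hochberg adjusted p under 0.05 over all genes), and neither did any other gene (0% called). On the recovered reads edgeR called 0 genes and DESeq2 81, none of them among the 8. Of the 8 log2 differences 7 were below 0, with a median of -0.45 beside 0.0053 over all tested genes. Without the 5 libraries farthest from the median striatal level 6 were below 0, with a median of -0.16, and with the striatal level as a covariate 5 were, with a median of -0.014. At an unadjusted p under 0.05 there were 4 of the 8, all lower in ZBTB7A stress, beside 16.1% of all genes. In bulk tissue, fewer cells of a type and less RNA per cell cannot be told apart.

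Among the peptide precursors, Cck encodes cholecystokinin, which acts in cortex mainly through the receptor Cckbr. Its normalized counts in ZBTB7A stress were 2981, 3274, 3570, 5222 and 5427, and in GFP stress they had a lowest value of 5016, a median of 6581 and a highest of 8331. In all, 3 ZBTB7A stress libraries lay below every GFP stress library and the other two lay within their range. The fold was 0.612 (95% interval 0.432 to 0.866), or -0.71 ± 0.24 (SE) on the log2 scale, and limma's adjusted p was 0.206. Within number runs, the 3 successive stretches of library numbers, which the labels do not call batches, the log2 difference was -0.98, -0.28 and -0.66. In run 1 ZBTB7A control is library 6 alone, in run 2 ZBTB7A stress is library 17 alone, and in run 3 GFP control is library 19 alone. Values within runs that use these groups rest on single libraries.

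Adcyap1 encodes PACAP, a peptide that raises cAMP through its receptor Adcyap1r1 and is studied for its part in stress. The ZBTB7A stress libraries held 194, 250.1, 257.5, 323 and 476.5, while GFP stress had a lowest of 256.0, a median of 639.9 and a highest of 944. Only 2 ZBTB7A stress libraries lay below all of GFP stress, and 4 GFP stress libraries lay above all of ZBTB7A stress. The fold was 0.523 (0.312 to 0.878), with a limma adjusted p of 0.247. The log2 difference, -0.94 ± 0.36 (SE), was the largest of the 8 in this comparison, and within number runs it was -1.39, -0.51 and -0.74. Without the 5 libraries farthest from the median striatal level it was -0.25, and with the striatal level as a covariate it was 0.066.

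Crh encodes the corticotropin-releasing hormone itself. Its normalized counts in ZBTB7A stress were 49.4, 52.6, 57.1, 84.5 and 124, and in GFP stress the lowest was 64.3, the median 98.1 and the highest 162. In all, 3 ZBTB7A stress libraries lay below all of GFP stress, and the groups overlapped. The fold was 0.644 (0.448 to 0.926; limma adjusted p = 0.254), and the log2 differences within runs, -1.02, 0.064 and -0.67, did not share a sign. Crhr1, the receptor that CRH uses in cortex, held 278, 303, 311, 356 and 473 in ZBTB7A stress and ran from 329 to 704 around a median of 517 in GFP stress. Again 3 ZBTB7A stress libraries lay below the GFP stress range. Its fold was 0.674 (0.498 to 0.913; limma adjusted p = 0.234), with log2 differences of -0.64, -0.48 and -0.55 within runs. Crhbp, which holds CRH back, was 0.859-fold (0.670 to 1.10), an interval that includes 1. Without the 5 far libraries the log2 differences of Cck, Crh and Crhr1 were -0.45, -0.30 and -0.16, and with the striatal level as a covariate they were -0.14, -0.073 and -0.0095.

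The remaining precursors gave intervals that include 1. Tac2, the precursor of neurokinin B, was 0.796-fold (0.609 to 1.04), and Trh, the precursor of thyrotropin-releasing hormone, was 0.844-fold with a wide interval of 0.396 to 1.80. Its log2 difference turned from -0.24 to 0.47 without the 5 far libraries and to 0.51 with the striatal level. Pnoc, the precursor of nociceptin, was 1.01-fold (0.723 to 1.42). These p-values miss the threshold and do not show that the groups are alike.

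**Figure D2:**
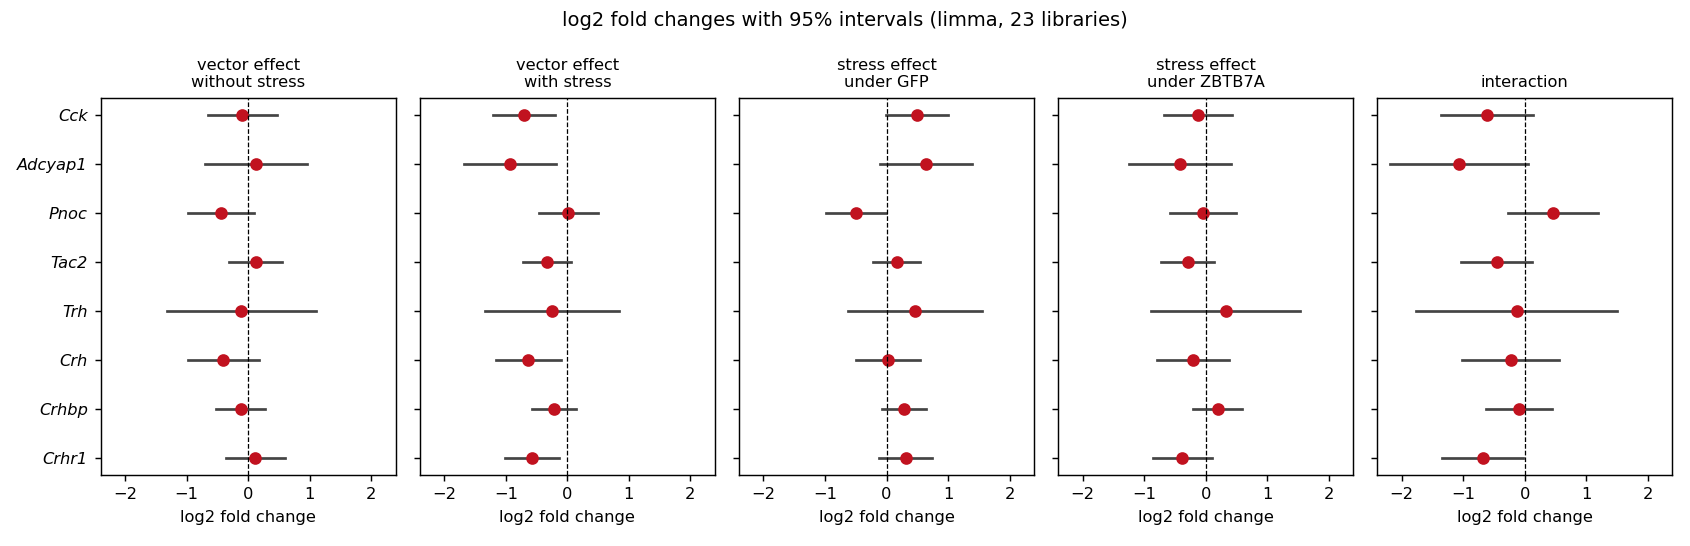
Fitted log2 fold change (horizontal axes) of each gene in the 5 comparisons, as points with 95% intervals from limma over 23 libraries. The intervals of Cck, Adcyap1, Crh and Crhr1 lie below 0 for the vector effect with stress, though none of these passed the adjusted threshold.

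The vector effect without stress asked the same of unstressed mice. None of the 8 passed in limma (0% of all genes called; 0 by edgeR and 0 by DESeq2), and 0 reached an unadjusted p under 0.05, beside 1.73% of all genes. The 8 differences had a median of -0.10 with 5 below 0, beside a median of -0.0111 over all genes. Without the 5 far libraries 2 were below 0 and the median was 0.19, and with the striatal level 6 were, with a median of -0.19. Cck held 1679, 4788, 5550, 5761 and 5884 in ZBTB7A control and 3808, 4127, 4397, 5420 and 5617 in GFP control. The lowest value, ZBTB7A control 6, lay far under both groups and the other 4 lay within or just above the GFP control range. Its fold was 0.936 (0.637 to 1.38), and without ZBTB7A control 6 the log2 difference turned from -0.095 to 0.246. Adcyap1 was at 133 in ZBTB7A control 6, below all of GFP control (296 to 409), and at 419.9 to 626 in the other 4, above all of it. Its fold was 1.10 (0.617 to 1.95). Pnoc held 153, 157, 158.5, 167 and 449 in ZBTB7A control and 131, 258, 305, 335 and 384 in GFP control, with a fold of 0.737 (0.507 to 1.07). One end of each group lay beyond the other: ZBTB7A control 6 above all of GFP control, and GFP control 19 below all of ZBTB7A control.

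Stress under the GFP vector was compared next. None of the 8 passed in limma (0% of all genes; 0 genes by edgeR and 39 by DESeq2, none of the 8), and 1 reached an unadjusted p under 0.05, beside 11.2% of all genes. The median log2 difference of the 8 was 0.30, with 7 above 0, beside -0.0053 over all genes. Without the 5 far libraries 2 of the 8, Cck and Crhbp, were above 0 and the median was -0.094, and with the striatal level as a covariate the same 2 were above 0 and the median was -0.12. Pnoc was the 1 gene below 0 and the 1 at an unadjusted p under 0.05. In GFP stress its values had a lowest of 161, a median of 190.4 and a highest of 211, and 4 of the 5 GFP control libraries lay above that range and 1 below it. The fold was 0.707 (0.505 to 0.990; limma adjusted p = 0.432). Within number runs its log2 difference was -0.59, -1.06 and 0.59, so the sign turned in the third run, in which GFP control is the single library 19 with the lowest Pnoc value. Crhbp was higher in 7 of 8 GFP stress libraries than in every GFP control library. Its values were 353, 474, 481, 489 and 494 in GFP control and ran from 484 to 638 around 553 in GFP stress. The fold was 1.22 (0.955 to 1.57; limma adjusted p = 0.526), and the difference had the same sign in all 3 runs (0.201, 0.317 and 0.257). Cck was 1.40-fold (0.992 to 1.99), with 5 of 8 GFP stress libraries above all of GFP control. Adcyap1 was 1.57-fold (0.933 to 2.63), with 6 of 8 above all of GFP control and 2 below all of it. Crh was 1.02-fold (0.709 to 1.46) and Crhr1 1.24-fold (0.915 to 1.68). The log2 differences of Adcyap1, Crh and Crhr1 turned to -0.034, -0.31 and -0.10 without the 5 far libraries, and to -0.12, -0.40 and -0.12 with the striatal level.

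Stress under the ZBTB7A vector gave no call among the 8 (0% of all genes in limma; 0 genes by edgeR and 1 by DESeq2, not one of the 8), and 0 at an unadjusted p under 0.05, beside 1.66% of all genes. The median log2 difference was -0.17, with 6 below 0, beside 0.0056 over all genes. Without the 5 far libraries 6 were below 0, with a median of -0.41, and with the striatal level 3 were, with a median of 0.028. The folds ran from 0.747 for Adcyap1 (0.420 to 1.33) to 1.25 for Trh (0.542 to 2.90), and every interval included 1. Crhr1 was 0.770-fold (0.550 to 1.08), with ZBTB7A stress values of 278 to 473 inside the ZBTB7A control range of 274 to 561 (lowest 274.5 in ZBTB7A control 6).

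The interaction asked whether stress acted differently under GFP and under ZBTB7A. None of the 8 passed in limma (0% of all genes; 0 genes by edgeR and 3 by DESeq2, none of the 8), and 1, Crhr1, reached an unadjusted p under 0.05, beside 7.42% of all genes. Its log2 interaction was -0.69 ± 0.32 (SE, limma adjusted p = 0.669), and it was -0.42, -0.37 and -0.87 within number runs. Every interaction within a run rests on a group of a single library: ZBTB7A control 6, ZBTB7A stress 17 and GFP control 19 in turn. Adcyap1 had the largest interaction, -1.07 ± 0.54 (SE; limma adjusted p = 0.671). The median over the 8 was -0.34, with 7 below 0, beside 0.0111 over all genes. With the striatal level as a covariate 6 of the 8 were above 0 and the median was 0.18: Adcyap1 turned to 0.13, Cck to 0.068, Crh to 0.44, Crhbp to 0.23 and Trh to 0.77, and Crhr1 was -0.016. Without the 5 far libraries 6 of the 8 were below 0, with a median of -0.31, and Trh turned to 0.44. The 5 comparisons share groups, so they are not independent of each other.

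Tissue marker levels were set beside the 8 genes. A marker level was computed for each library as the mean of the log2 values of the listed genes, each centred on its mean, with the 8 genes left out. The striatal level (20 genes) averaged -1.08 ± 1.61 (SD, n = 8) for GFP stress and 1.06 ± 0.61 (n = 5) for ZBTB7A stress. It averaged 0.55 ± 0.62 (n = 5) for GFP control and 0.12 ± 1.23 (n = 5) for ZBTB7A control. In limma with the 4 group means, the slope on this level passed for 4 of the 8 genes, beside 16.0% of all genes. Per unit of striatal level Adcyap1 fell by 0.47 (adjusted p = 8.22e-05), Cck by 0.27 (adjusted p = 0.00405), Crh by 0.26 (adjusted p = 0.00894) and Crhr1 by 0.26 (adjusted p = 3.47e-04), on the log2 scale.

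The 4 GFP stress libraries of lowest striatal level held Adcyap1 at 823 to 944, and the other 19 libraries at 133 to 626. Cck was at 7225 to 8331 in them and at 1679 to 5937 elsewhere, and Crhr1 at 631 to 704 against 274.5 to 561. In each of these 3 genes the 4 libraries lay above all 19 others, whereas in Crh, Crhbp, Tac2, Trh and Pnoc some of the 19 lay above the lowest of the 4. The share of all tested genes that separated these 4 libraries was not counted. The slope on the striatal level passed for 16.0% of all genes, so such a separation need not be particular to these genes. ZBTB7A control 6, of highest striatal level, had the lowest Cck, Adcyap1, Crh, Crhbp and Crhr1 of all 23 libraries.

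**Figure D3:**
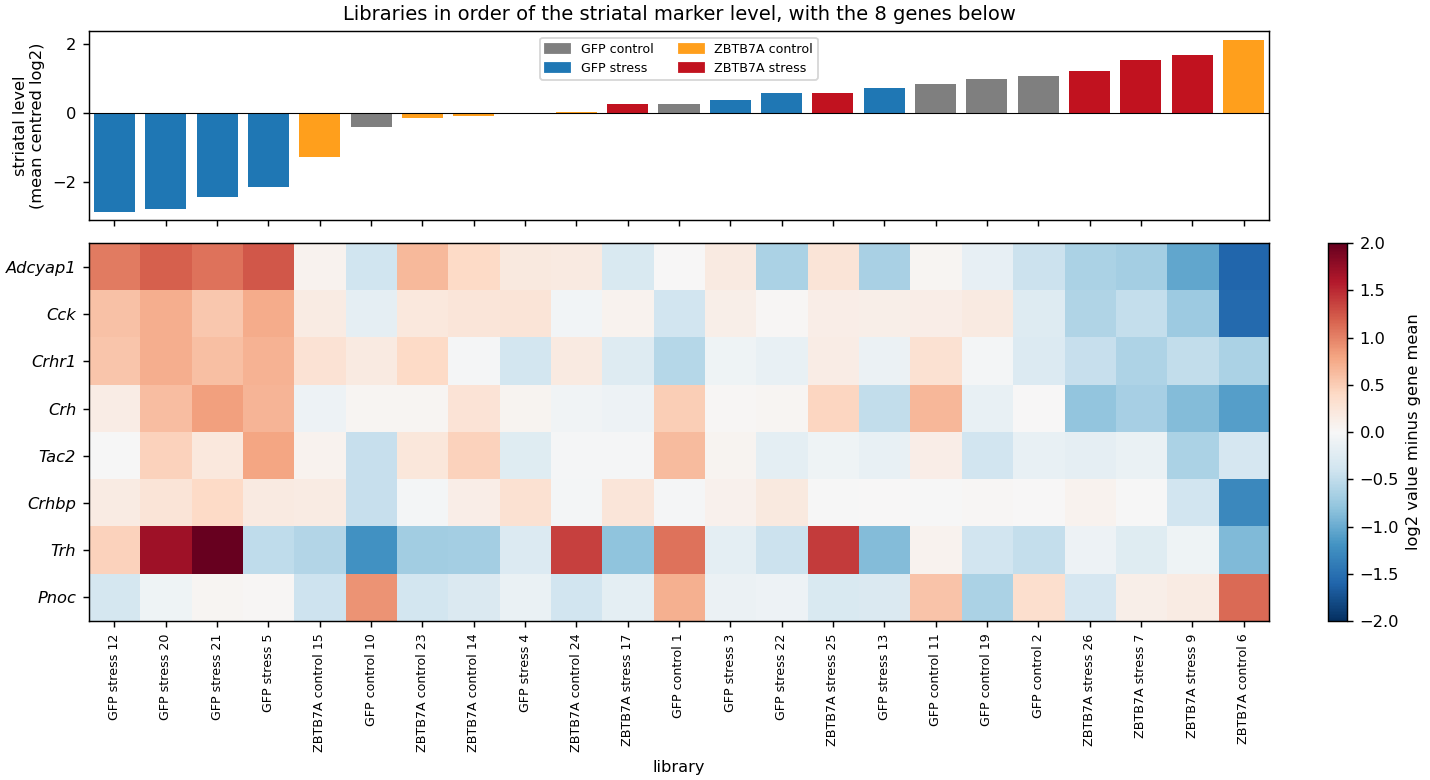
Libraries from left to right in order of striatal marker level (upper bars, mean centred log2), and for each the log2 value of the 8 genes minus the gene's mean (lower panel, colour). Adcyap1, Cck and Crhr1 are high in the 4 GFP stress libraries at the left and low in ZBTB7A control 6 at the right, while Trh and Pnoc do not follow that order.

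Across the 23 libraries, Pearson's r with the striatal level was -0.878 for Adcyap1 (Spearman's rho -0.836), -0.843 for Crhr1 (rho -0.789), -0.795 for Cck (rho -0.783) and -0.680 for Crh (rho -0.667). Each r of Adcyap1, Crhr1 and Cck had a permutation p of 1e-05, the smallest that 100000 permutations can give, or 5.33e-05 after Benjamini-Hochberg adjustment over 32 relations, and Crh had an adjusted permutation p of 0.00171. Without the 2 libraries farthest from the median level, r was -0.845, -0.798, -0.765 and -0.712 in the same order. Without the 4 lowest libraries, an alternative chosen after seeing the data, it was -0.730, -0.663, -0.705 and -0.583. Within number runs, r was -0.968, -0.767 and -0.892 for Adcyap1, and -0.889, -0.662 and -0.835 for Cck. For Crhr1 it was -0.876, -0.707 and -0.899. For Crh it was -0.874, 0.002 and -0.803, so the relation did not hold in the second run.

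**Figure D4:**
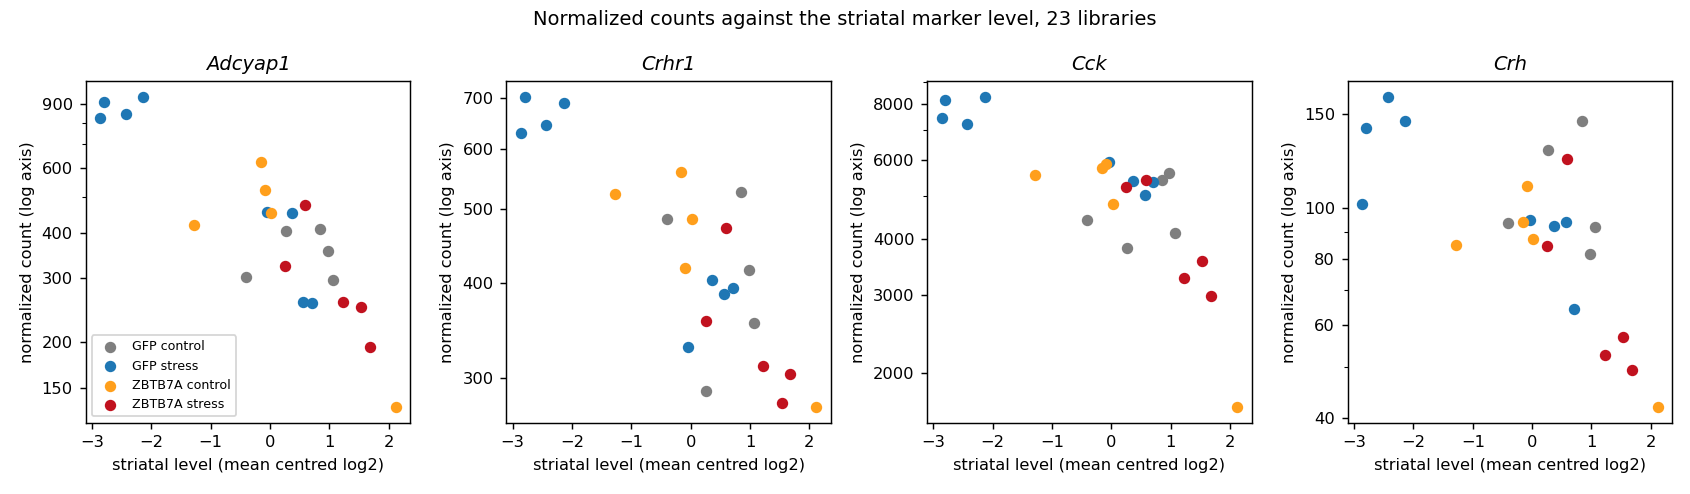
Normalized count (vertical axes, log scale) of Adcyap1, Crhr1, Cck and Crh against the striatal marker level (horizontal axes, mean centred log2) in 23 libraries, coloured by group. Counts fall from the left to the right in each panel, and the 4 GFP stress libraries at the far left are above all others for Adcyap1, Crhr1 and Cck, while for Crh 4 of the other 19 lie above the lowest of them.

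The other members related to this level less. Tac2 had r = -0.574 and Crhbp r = -0.539, with adjusted permutation p of 0.0117 and 0.0198, and Tac2 was at 0.029 within the second run. Trh (r = -0.430) and Pnoc (r = 0.259) had adjusted permutation p of 0.0735 and 0.264. The excitatory neuron level (20 genes) gave a limma slope that passed for 6 of the 8, beside 25.8% of all genes: Cck, Crh, Crhbp, Crhr1 and Adcyap1 had positive slopes and Pnoc a negative one. ZBTB7A control 6 had the lowest excitatory level (-0.848). Without the 2 libraries farthest from the median level, r of Crhbp went from 0.772 to 0.226 and r of Pnoc from -0.453 to -0.029, so these 2 relations rest on those libraries. For Crh r went from 0.703 to 0.487, for Adcyap1 from 0.694 to 0.486, for Cck from 0.880 to 0.707 and for Crhr1 from 0.695 to 0.691. Within the second run it was 0.266 for Cck, 0.381 for Adcyap1, 0.683 for Crhr1 and 0.769 for Crh. The r of Pnoc within number runs was -0.897, 0.441 and 0.659. The inhibitory neuron level (21 genes) gave 0 of 8, beside 2.06% of all genes, though across libraries Cck had r = -0.538 with it (rho -0.612, adjusted permutation p of r 0.0181). This list did not move as one: in ZBTB7A stress against GFP stress 14 of its 21 genes were above 0 and 7 below. Group means there were 7577 against 4624 for Gad2 but 598 against 1020 for Pvalb. A relation of Cck to interneuron content was therefore not tested by this level. The part that tissue makeup had in the differences between groups was not tested beyond these values and the covariate fits.

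Trh followed a different set of markers. Its normalized count was 483 in GFP stress 21, 307 in GFP stress 20, 249.8 in ZBTB7A stress 25 and 244.5 in ZBTB7A control 24, and 202 in GFP control 1. All other libraries lay at or below 129.8, and the 5 libraries named came from all 4 groups. The first 4 had the 4 highest levels of an olfactory marker list (10 genes, Trh left out), from 1.27 to 2.35, while GFP control 1 was at -0.27. In limma the slope on this level, a relation added after seeing the data, passed for Trh alone of the 8 (0.92 log2 per unit, adjusted p = 8.07e-04), beside 0.262% of all genes. Pearson's r was 0.843 (adjusted permutation p = 5.33e-05) and rho was 0.594, but without the 4 highest libraries r was 0.291, so the relation rests mostly on those libraries. Within number runs r was 0.034, 0.504 and 0.966. The olfactory list did not move as one: for stress under GFP 8 of its 11 tested genes, Trh among them, were above 0 and 3 below.

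**Figure D5:**
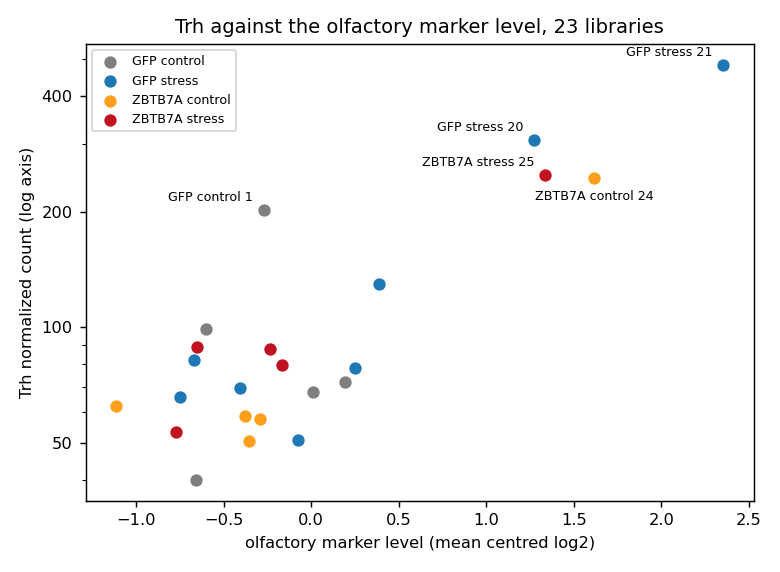
Trh normalized count (vertical axis, log scale) against the olfactory marker level (horizontal axis, mean centred log2) in 23 libraries, coloured by group, with the libraries above 200 normalized counts named. The 4 libraries at the upper right come from 3 groups, and GFP control 1 is high in Trh at a low olfactory level.

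Among themselves, the 8 genes mostly varied in the same direction across the 23 libraries. Of 28 pairs, 21 had a positive Pearson's r, with a median of 0.497, and 12 passed an adjusted permutation p under 0.05 by both r and rho. The share over all pairs of tested genes was not computed, so these counts do not set the 8 apart from other genes. The slope on the excitatory level passed for 25.8% of all genes and that on the striatal level for 16.0%. The highest r of the 28 pairs was that of Cck with Adcyap1 (r = 0.886, rho = 0.891, adjusted permutation p of r 5.6e-05), which was 0.843 without the 2 farthest libraries and 0.958, 0.868 and 0.853 within runs. Within the CRH system, Crh and its receptor Crhr1 had r = 0.710 (rho = 0.659, adjusted permutation p = 5.91e-04) and 0.656, 0.466 and 0.867 within runs. Crh and its binding protein Crhbp had r = 0.603, but 0.276 without the 2 farthest libraries and -0.034 within the second run. Pnoc had a negative r with each of the others, but it was only -0.122 with Trh, -0.080 with Crh and -0.077 with Tac2. Only its r with Crhbp (-0.664) and with Cck (-0.558) passed an adjusted permutation p under 0.05. Neither of these held in all runs: in the third run they were 0.834 and 0.438, and by rho their adjusted permutation p was 0.261 and 0.106.

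By likeness of log2 values over the 23 libraries, among 13340 genes with a mean of 50 or more, Cck was most like Mical2 and Prkar1b (r = 0.971 for each). Adcyap1 was most like Fam19a1 (0.955) and Rgs7 (0.954), and Crhr1 most like Grm2 (0.934) and Lrrc4 (0.904). Crhbp was most like Tmem132c (0.917) and Serpini1 (0.914), and Crh most like Lurap1l (0.861) and Smyd2 (0.856). Pnoc was most like Ret (0.889) and Cpt2 (0.853). Trh was most like Th (0.901), which is on the olfactory list, and Calb2 (0.860), and Tac2 was most like Nectin3 (0.802) and Pam (0.797), the amidating enzyme named above.

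The partners of these genes were followed by lists. Of 8 other genes of the CRH system only Crhr2, the second CRH receptor, and Pomc, the precursor of ACTH, passed the filter, and 0 of these 2 passed a test in any comparison. Crhr2 had its smallest p for stress under GFP, at 0.656-fold (0.378 to 1.14; limma adjusted p = 0.551), and Pomc for the vector without stress, at 0.924-fold (0.677 to 1.26; limma adjusted p = 0.9999). The urocortins Ucn, Ucn2 and Ucn3, also ligands of CRH receptors, were at 0 in 8, 8 and 18 of 23 libraries. Of 11 receptors of the peptides 9 were tested and 0 passed in any comparison. In ZBTB7A stress against GFP stress, 5 of the 9 were above 0, with a median log2 difference of 0.14. Trhr, the TRH receptor, was 1.94-fold (1.33 to 2.84; limma adjusted p = 0.183), and Tacr1, the main receptor of substance P, was 2.58-fold (1.42 to 4.68; limma adjusted p = 0.183). Tacr3, also among the 9, was 3.84-fold (1.61 to 9.13), with a limma adjusted p of 0.188. Cckbr, the receptor of Cck named above, was 0.691-fold (0.497 to 0.962), with a limma adjusted p of 0.273, and so had the direction of Cck. Other receptors did not have the direction of their peptide. Adcyap1r1 was 1.10-fold (1.009 to 1.205; limma adjusted p = 0.279), while Adcyap1 was 0.523-fold. Trhr, Tacr1 and Tacr3 were above 1, while Trh (0.844-fold) and Tac2 (0.796-fold) were below 1.

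Processing and breakdown genes (19 of 19 tested) gave 0 calls, with a median of -0.16 and 14 of 19 below 0 in that comparison. Mme, a peptide-degrading protease, was 1.90-fold (1.17 to 3.07; limma adjusted p = 0.228) and Dpp4, another, was 0.667-fold (0.471 to 0.944; limma adjusted p = 0.266). Other peptide precursors (14 of 16 tested) gave 0 calls and a median of -0.15, with 9 of 14 below 0. The 2 genes of smallest p were Cartpt and Nts, each with its own smallest p in the interaction. Cartpt had an interaction of 5.21-fold (2.92 to 9.28; limma adjusted p = 0.0976), and Nts of 17.2-fold (3.81 to 77.4; limma adjusted p = 0.669). Signalling genes downstream of the receptors (23 of 23 tested) gave 0 calls and a median of -0.059. Pde4b was 1.16-fold (1.07 to 1.25; limma adjusted p = 0.183) and Pde10a, which is also a striatal marker, was 3.35-fold (1.60 to 6.99; limma adjusted p = 0.183), in ZBTB7A stress against GFP stress. In that comparison all 20 striatal markers were above 0, with a median of 1.99, and for stress under GFP all 20 were below 0, with a median of -1.39; their part in these results was not tested.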

How the data were processed

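Polyadenylated RNA of mouse orbitofrontal cortex was sequenced in 23 libraries. The values are the authors' deposited normalized counts, a signal of reads divided by 1 size factor per library with no correction for gene length. Alignment and counting tools are given in the submitters' processing notes as featureCounts 2.0.1 and HISAT2 2.1.0, with DESeq2 2.11.40.6; the role of the builds is not stated. Whole reads could be recovered from 100% of values, within 0.02 reads. No value column was without a sample.

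After removal of 428 repeated entries, log2 of the value plus 1 was fitted over 16385 genes with limma 3.58.1 in R 4.3.3 (4 group means, trend, robust, two-sided, Benjamini-Hochberg over all genes, threshold 0.05). The same code was tested on simulated data. Relations used Pearson's r and Spearman's rho with 100000 permutations (scipy 1.17.1). Alternatives on the recovered reads were DESeq2 1.42.0 and edgeR 4.0.16; on the log2 scale they were TMM scaling, another pseudocount (5), other filters (none, or a mean over 50), covariates, and libraries left out. The olfactory relation and covariate, the omission of 4 libraries and differences within number runs were added after the data were seen.

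The 8 genes and the lists were chosen with earlier results of these data known. Named list genes are those that passed in any comparison, otherwise the 2 of smallest p. The receptors Cckbr, Tacr3 and Adcyap1r1 were named in addition. Like genes are the 2 of highest r. Coding sequence and lengths came from GENCODE M21.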

Additional observations from a re-analysis of the deposited data

Results flagged for a closer look

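In 6 of 32 groups of libraries (8 genes by 4 groups), 1 library lay far from the rest of its group, by the gap to its nearest neighbour over the range of the group. About 5% of groups is the nominal rate of this rule, and the 6 share libraries. The share of groups flagged over all tested genes was not counted, so the 6 are not a result particular to these genes. ZBTB7A control 6 also had the highest striatal level (2.116) and the lowest excitatory level (-0.848). Of these, 3 are ZBTB7A control 6: Cck at 1679 (nearest 4788, gap ratio 0.739), Crhbp at 197.6 (nearest 472.2, gap ratio 0.794) and Pnoc at 449 (nearest 167, gap ratio 0.954). Cck and Crhbp were low there and Pnoc was high. Trh was high in ZBTB7A control 24 at 244.5 (nearest 62.5, gap ratio 0.939) and in ZBTB7A stress 25 at 249.8 (nearest 89.0, gap ratio 0.818). Crhbp was low in GFP control 10 at 353 (nearest 474, gap ratio 0.860). The critical ratio was 0.71 in groups of 5. The part of sampling or dissection in these values was not tested.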

How the results depend on the processing

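Fold changes of the 8 genes kept their sign in the 5 comparisons under pseudocount 5, no filter, a mean of 50 or more and TMM scaling, and 0 of the 8 were called under any setting run. By DESeq2 the genes called were 81 for the vector with stress, 39 for stress under GFP, 1 for stress under ZBTB7A and 3 for the interaction. Leaving out 1 library gave 0 to 3 genes for the vector with stress (3 without GFP stress 13) and 0 to 79 for the interaction (79 without ZBTB7A control 6, 2 without GFP stress 13, 1 without GFP stress 22 and 1 without ZBTB7A stress 17). The cause of these moves and of the sign changes that follow was not tested. With edgeR the log2 difference turned sign for the vector without stress in Cck 0.021 and Trh 0.0083. With DESeq2 the log2 difference turned sign for the vector without stress in Cck 0.019. With number run as a covariate the log2 difference turned sign for the interaction in Trh 0.0068. Without the 5 far libraries the log2 difference turned sign for the vector without stress in Cck 0.25, Crhbp 0.15 and Trh 0.036, for the vector with stress in Trh 0.47, for stress under GFP in Crh -0.31, Crhr1 -0.10, Tac2 -0.087, Trh -0.26 and Adcyap1 -0.034, for stress under ZBTB7A in Crhbp -0.075 and Pnoc 0.26, for the interaction in Trh 0.44. With the striatal level as a covariate the log2 difference turned sign for the vector without stress in Adcyap1 -0.068, for the vector with stress in Crhbp 0.055, Pnoc -0.15, Trh 0.51 and Adcyap1 0.066, for stress under GFP in Crh -0.40, Crhr1 -0.12, Tac2 -0.074, Trh -0.12 and Adcyap1 -0.12, for stress under ZBTB7A in Cck 0.13, Crh 0.039 and Adcyap1 0.017, for the interaction in Cck 0.068, Crh 0.44, Crhbp 0.23, Trh 0.77 and Adcyap1 0.13. With the olfactory level as a covariate, added after seeing the data, the log2 difference turned sign for the vector with stress in Pnoc -0.015 and Trh 0.11, for stress under GFP in Crh -0.081 and Trh -0.053, for the interaction in Trh 0.37. Within number run 1, a setting added after seeing the data as are the next 2, the log2 difference turned sign for the vector without stress in Crhr1 -0.22, Pnoc 0.61, Tac2 -0.57 and Adcyap1 -1.37, for the vector with stress in Trh 0.16, for stress under GFP in Crh -0.0040, Tac2 -0.037 and Trh -0.63, for stress under ZBTB7A in Cck 0.96, Crh 0.33, Crhr1 0.080 and Adcyap1 0.73, for the interaction in Cck 0.26, Crh 0.34, Crhbp 0.89, Pnoc -0.39 and Trh 1.35. Within number run 2 the log2 difference turned sign for the vector without stress in Cck 0.23, Crhbp 0.38 and Crhr1 -0.11, for the vector with stress in Crh 0.064, Crhbp 0.15 and Tac2 0.048, for stress under GFP in Crh -0.52 and Crhr1 -0.021, for stress under ZBTB7A in Pnoc 0.15 and Trh -0.18, for the interaction in Crh 0.33. Within number run 3 the log2 difference turned sign for the vector without stress in Crh 0.14, Pnoc 0.26 and Trh 0.72, for the vector with stress in Pnoc -0.27, for stress under GFP in Pnoc 0.59, for stress under ZBTB7A in Pnoc 0.058, for the interaction in Pnoc -0.54. Within these runs ZBTB7A control 6 (run 1), ZBTB7A stress 17 (run 2) and GFP control 19 (run 3) are each the only library of their group. Leaving out 1 library at a time, ranges that crossed 0 were for the vector without stress Cck -0.21 to 0.25, Crhbp -0.22 to 0.15, Crhr1 -0.0037 to 0.29, Trh -0.53 to 0.21, Adcyap1 -0.043 to 0.51; for the vector with stress Pnoc -0.053 to 0.074, Trh -0.59 to 0.050; for stress under GFP Crh -0.065 to 0.14; for stress under ZBTB7A Crhbp -0.075 to 0.29, Pnoc -0.13 to 0.26, Trh -0.016 to 0.74; for the interaction Trh -0.48 to 0.28. Among correlations with an adjusted permutation p of r under 0.05, those that turned sign within a number run were Crh with the striatal level 0.002 (run 2), Tac2 with the striatal level 0.029 (run 2), Crhbp with the excitatory level -0.11 (run 2), Cck and Pnoc 0.438 (run 3), Crh and Crhbp -0.034 (run 2), Crhbp and Crhr1 -0.102 (run 2), Crhbp and Pnoc 0.834 (run 3), Crhr1 and Tac2 -0.028 (run 2). No paired analysis was possible because no library number is shared between groups. Crh and Trh had the lowest read counts of the 8, down to 24 and 29 reads, so counting error weighs most on them. Its part in their spread was not tested.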
